A study of Mus musculus with 4 samples.

Results

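The Rhox genes are a cluster of reproductive homeobox genes on the mouse X chromosome, and their expression was read here from every non-control probe whose gene name in the scanner files starts with Rhox and a digit. This rule gave 26 probes for 22 gene names, of 56605 probes on the array. GC-1 and GC-2 are immortalised lines made from mouse male germ cells. As background, type B spermatogonia immortalised by the SV40 large T antigen gave GC-1. GC-2 came from spermatocytes that received large T together with a temperature-sensitive p53. Both lines thus carry a viral oncogene, and each is 1 cultured line. The labels name no treatment: both lines were grown alike in high-glucose DMEM with fetal bovine serum, penicillin and streptomycin, were collected near confluency into Trizol and were frozen. Each line was measured on 2 one-colour Agilent arrays, 4 in all, from total RNA labelled with Cy3 from an oligo-dT primer. All 4 arrays lie on 1 slide, with the arrays of a line side by side, which means that a line cannot be told apart from its place on the slide. Since the labels do not give the replicates as separate cultures, a p-value here covers the spread between these arrays alone, and that spread may be technical.

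Rhox proteins are transcription factors that are made mainly in testis, epididymis, ovary and placenta. Rhox5, also called Pem, is the founding member, is driven by androgen in Sertoli cells and supports germ cell survival from there. Rhox8 is likewise known from Sertoli and ovarian somatic cells, Rhox10 and Rhox13 from germ cells, and Rhox6 and Rhox9 from placenta and early germ cells. In most other tissues the cluster is kept silent by DNA methylation, and in the mouse the Rhox2, Rhox3 and Rhox4 genes are each present as several near-identical copies, which a probe may not tell apart.

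The probes are 60-base oligonucleotides, and their letters bear on what the values mean. The brightest Rhox probes, those of Rhox8 and Rhox4g, hold long simple repeats, as does the Rhox4e probe. They are shown with the longest tandem repeat in capitals, at chrX:35231462-35231521 (Rhox8, minus strand), chrX:35063609-35063668 (Rhox4g, minus strand) and chrX:34971934-34971993 (Rhox4e, plus strand) in the mm9 build that the scanner files use.
Rhox8 A_55_P1981829: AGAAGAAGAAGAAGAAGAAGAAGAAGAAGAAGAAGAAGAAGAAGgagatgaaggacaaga
Rhox4g A_55_P2718760: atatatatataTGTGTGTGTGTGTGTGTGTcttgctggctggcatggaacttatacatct
Rhox4e A_55_P1975665: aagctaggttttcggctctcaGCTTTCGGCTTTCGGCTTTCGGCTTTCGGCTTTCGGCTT

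The repeat covers 44 bases of the Rhox8 probe, and only 0.0230% of all probes hold a repeat of units of up to 8 bases that is as long. It covers 39 bases of the Rhox4e probe and 19 of the Rhox4g probe, while no other member holds one above 16 bases, with a median of 11 over all probes. Of the probes for genes other than Rhox, 13 share a run of at least 20 bases with the Rhox8 probe and 12 with this Rhox4g probe, while none shares such a run with any of the other 24 members.

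Near-identical copies are the other limit. A Rhox4a and a Rhox4g probe differ from each other by C54T and T58C, and a Rhox3f and a Rhox3h probe by A43C and G57A, counted from 1 at the 5′ end with the base of the first named probe of each pair first. The bases that differ are in capitals below. The probes lie at chrX:34809907-34809966, chrX:35061172-35061231, chrX:34999817-34999876 and chrX:35072322-35072381 (mm9).
Rhox4a A_55_P2000399: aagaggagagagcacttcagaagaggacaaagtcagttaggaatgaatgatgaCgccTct
Rhox4g A_55_P1975667: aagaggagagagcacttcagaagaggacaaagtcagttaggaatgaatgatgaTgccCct
Rhox3f A_55_P2016367: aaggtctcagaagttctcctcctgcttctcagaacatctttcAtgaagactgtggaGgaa
Rhox3h A_55_P1984347: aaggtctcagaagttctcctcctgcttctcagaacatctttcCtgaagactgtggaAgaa

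Both Rhox5 probes share 23 bases, shown in capitals, so they are not independent readings of Rhox5; the scanner files give no genome position for them.
Rhox5 A_55_P2500786: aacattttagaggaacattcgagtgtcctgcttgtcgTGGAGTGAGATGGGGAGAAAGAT
Rhox5 A_51_P376445: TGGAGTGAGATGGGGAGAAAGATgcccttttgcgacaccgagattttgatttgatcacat

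The probes of Rhox10 (chrX:35424740-35424799, plus strand, mm9) and Rhox3a (chrX:34798883-34798942, plus strand, mm9) hold no long repeat and share no such run with another probe. They carry the largest falls among Rhox probes of that kind.
Rhox10 A_66_P138201: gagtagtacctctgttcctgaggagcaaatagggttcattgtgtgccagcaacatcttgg
Rhox3a A_66_P107583: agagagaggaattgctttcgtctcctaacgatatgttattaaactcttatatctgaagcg

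Most Rhox probes were faint or not above background in both lines. Of the 26 probes, both GC-1 arrays showed 15 well above background and both GC-2 arrays 14, against 61.8% and 56.6% of all probes. These are 57.7% and 53.8% of the Rhox probes, shares near those of the whole array. The 8 probes above background on no array read Rhox2c, Rhox2f, Rhox3e, Rhox3g, Rhox6, Rhox11, Rhox13 and a stretch of Rhox7a, against 29.9% of all probes. Their signals lay between 1.54 and 6.84, while the brightest negative control spot of an array reached 5.13 to 15.0. For Rhox6 and Rhox13, known from early and maturing germ cells, no level can therefore be given in either line.

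**Figure D1:**
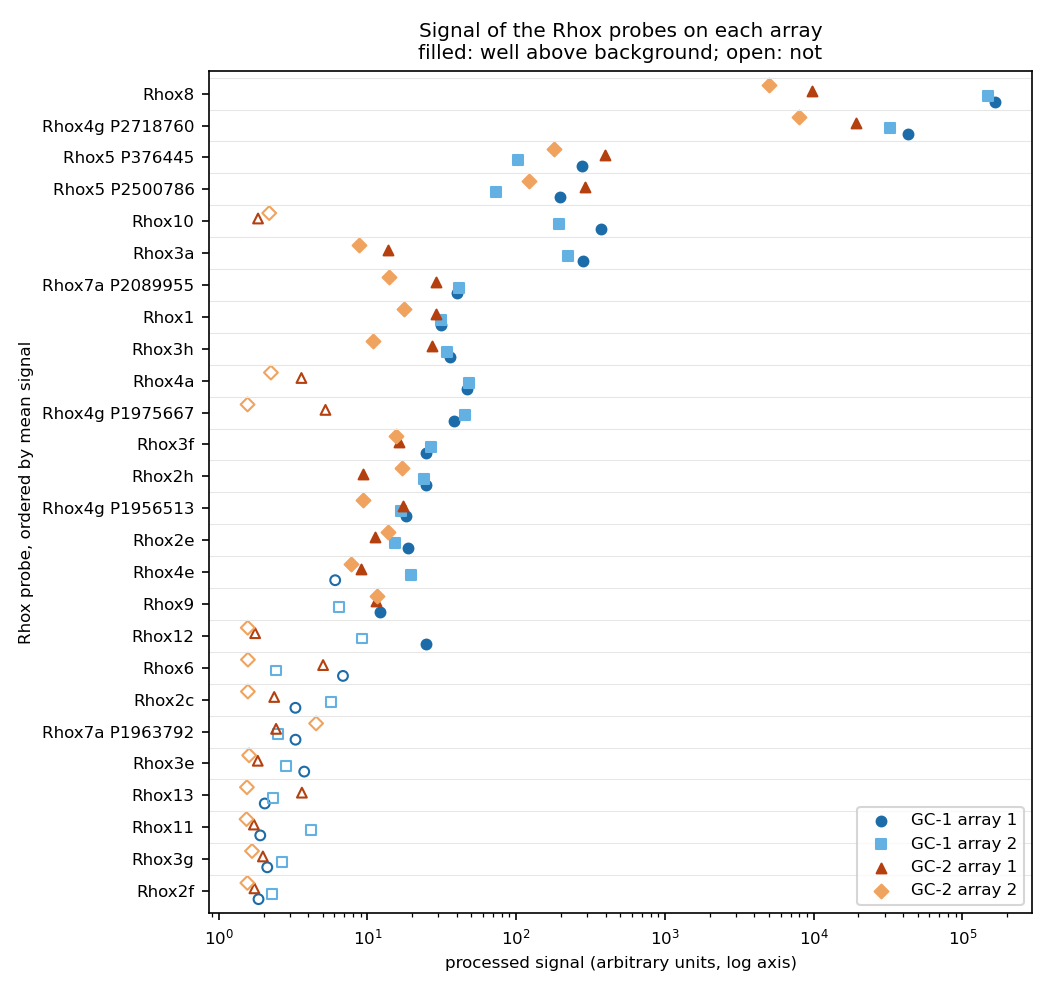
Processed signal (arbitrary units, log axis) of the 26 Rhox probes on the 2 GC-1 arrays (blue) and the 2 GC-2 arrays (orange and brown), 1 row per probe; filled points were well above background and open points were not. The probes of Rhox8 and 1 of the Rhox4g probes stand far to the right of the others, and Rhox10, Rhox4a and another Rhox4g probe have filled points in GC-1 alone.

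Signals below are the scanner's processed Cy3 brightness in arbitrary units, given in the order GC-1 replicates 1 and 2, then GC-2 replicates 1 and 2. A normalised level is the log2 of the signal minus the array's own 75th percentile, so that 0 is the level of a probe at that percentile. The 75th percentile itself was 666 and 693 in GC-1 and 416 and 199.9 in GC-2, and 57.5% to 64.9% of probes per array were well above background. Tests were made with limma over all probes that both arrays of 1 line or of each line showed well above background. That left 36692 probes (64.8% of all, and 17 of the 26 Rhox probes), of which 45.7% were called at an adjusted p under 0.05, 24.1% higher and 21.6% lower in GC-2.

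Of the 17 Rhox probes tested, 5 were called lower in GC-2, 4 were called higher and 8 were not called. The called share of those tested was 52.9%. Of the 5 lower, Rhox10, Rhox4a and Rhox4g A_55_P1975667 passed the filter through GC-1 alone, which favoured a lower reading in GC-2. Rhox9, 1 of the 4 higher, passed it through GC-2 alone. With a filter on all 4 arrays, 12 Rhox probes were tested, 2 called lower and 4 higher. Of all probes so tested, 20.8% were lower and 26.5% higher. The median change of the 17 was 0.28 on the log2 scale, beside 0.07 over all probes tested. The other 9 probes were not tested. When the arrays were scaled instead to the E1A control RNAs that were added to each sample, 13 of the 17 were called lower and none higher (none at an unadjusted p under 0.05 in the same limma fit), and of all probes 78.0% were lower and 5.25% higher. On that scale the median change over all probes moved to -1.79, so every statement here on a rise or fall is relative to the 75th percentile of the array.

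Rhox10, which helps to establish spermatogonial stem cells, had the largest fitted change among the Rhox probes. Its signal was 372 and 195 in GC-1 and 1.84 and 2.18 in GC-2. Both GC-1 arrays were well above background and neither GC-2 array was, with no overlap. The normalised level was -1.33 ± 0.70 (SD, n = 2) in GC-1 and -7.17 ± 0.92 (SD, n = 2) in GC-2. The fitted change was -5.83 ± 0.54 (SE; limma adjusted p = 0.00109). Since the GC-2 value is not a measured level, the difference is given as a bound: the Rhox10 signal in GC-1 was higher by at least 14.0-fold, the bound being the GC-1 mean over the lowest signal that was well above background on the GC-2 arrays. After normexp correction the change of Rhox10 was -1.285 (limma adjusted p = 0.0226), smaller than that of the Rhox8 probe (-3.45).

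Rhox3a, of a group of copies that is active in testis, was above background everywhere. Its signals were 281 and 224 in GC-1 and 13.8 and 8.75 in GC-2. The GC-1 arrays were the brighter without overlap, and both GC-2 values were faint. Rhox3a fell by 3.28 on the log2 scale (SE 0.28; limma adjusted p = 0.000848). Under the normexp background correction, which adds an offset and so compresses faint signals, its change was -0.93 with an adjusted p of 0.0575 and the call was lost. RefSeq lists this probe's target transcripts under Rhox3a, Rhox3c and Rhox3h, so the fall is that of this probe and not of a single copy. The other tested probes of these copies did not show it. The Rhox3f probe, also listed under Rhox3a and Rhox3c, changed by 0.54 and was not called. The Rhox3h probe, listed under Rhox3h alone, changed by 0.21 and was not called. The Rhox3e probe, also listed under Rhox3a and Rhox3c, was above background on no array and so could not show a fall.

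The Rhox4 copies gave readings that differ by probe. The Rhox4a probe had signals of 46.6 and 48.4 in GC-1 and 3.60 and 2.24 in GC-2. Its near-identical Rhox4g partner had 38.1 and 45.4 in GC-1 and 5.22 and 1.56 in GC-2. Both were above background on the GC-1 arrays alone, as was Rhox10, a state that 4.41% of all probes shared. The reverse state, above background on both GC-2 arrays and neither GC-1 array, held for 1.93% of all probes and for no Rhox probe. The fitted changes were -2.83 ± 0.25 for Rhox4a and -2.63 ± 0.31 for its Rhox4g partner (SE; limma adjusted p = 0.000942 and 0.00219). The GC-2 values are not measured levels, so these changes are not measured sizes. As bounds, the GC-1 level was higher by at least 2.46-fold for Rhox4a and by at least 2.16-fold for this Rhox4g probe. With 2 mismatches in 60 bases, the pair are not independent readings of the Rhox4 copies. RefSeq lists Rhox4a and Rhox4a2 for the Rhox4a probe, and Rhox4b, Rhox4e, Rhox4f and Rhox4g for its partner. After normexp correction the changes turned to 0.34 and 0.41 and neither was called. Over all probes tested the median change moved to 0.50 with normexp, and both changes lay below it.

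Another Rhox4g probe, A_55_P1956513, was faint on all arrays, with 18.1 and 16.7 in GC-1 and 17.3 and 9.35 in GC-2. The raw signals overlapped, but after division by the arrays' 75th percentiles the levels did not, and the probe was called higher by 0.79 ± 0.24 (SE; limma adjusted p = 0.0414). That call was lost whichever of the 4 arrays was left out, with adjusted p between 0.0868 and 0.153. The Rhox4g probe with the GT repeat was bright, at 43406 and 32557 in GC-1 and 19245 and 7924 in GC-2. Its change of -0.37 ± 0.27 (SE; limma adjusted p = 0.314) was not called.

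**Figure D2:**
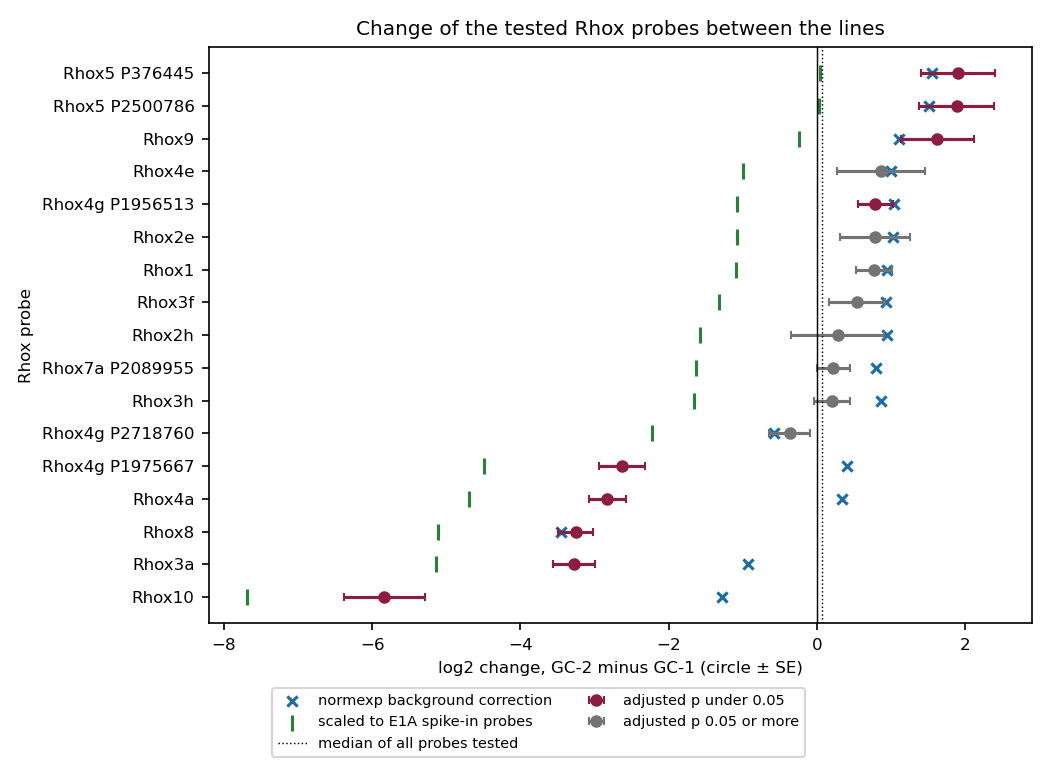
Log2 change between the lines (GC-2 minus GC-1, circle ± SE) for the 17 tested Rhox probes, with the same change after normexp background correction (crosses) and after scaling to the E1A control RNAs (bars); the dotted line is the median of all probes tested, 0.07. Rhox10, Rhox3a and Rhox8 lie below 0 under all 3 settings. The Rhox4a and Rhox4g P1975667 crosses lie above 0, and the 2 Rhox5 bars lie at 0.04 and 0.02. Over all probes tested the median was 0.50 after normexp and -1.79 on the E1A scale.

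The Rhox8 probe gave the brightest Rhox signal, 164655 and 148709 in GC-1 and 9723 and 4988 in GC-2. It was brighter than 99.8% of all probes on each GC-1 array, and the lines did not overlap. The probe's signal fell by 3.25 (log2, SE 0.23; limma adjusted p = 0.000519). The array carries 10 probes for other genes that hold an AAG repeat of at least 24 bases, and they moved alike. All 10 were above background on all arrays, with median signals of 137867 and 125983 in GC-1 and 8682 and 4323 in GC-2. All 10 were called lower in GC-2, with changes from -4.28 to -2.03 and a median of -3.32. They include a probe for Gcm1, a placental transcription factor, with 173460 and 159959 in GC-1 and 9648 and 5074 in GC-2, and probes for Dcc, a netrin receptor, and Pigr, an immunoglobulin receptor (genes named after their values were seen). No other Rhox8 probe is on the array, so a Rhox8 level apart from the repeat was not tested.

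The GT-repeat probe of Rhox4g likewise lay among the probes that share its repeat. Of 69 other probes with a GT repeat of at least 16 bases, all 69 were above background on all arrays. Their median signals were 69577 and 53890 in GC-1 and 32433 and 13885 in GC-2. None of the 69 was called in the limma fit, nor had any an unadjusted p under 0.05, and their median change was -0.32, beside -0.37 for the Rhox4g probe. What part of this probe's signal comes from Rhox4g was not tested.

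**Figure D3:**
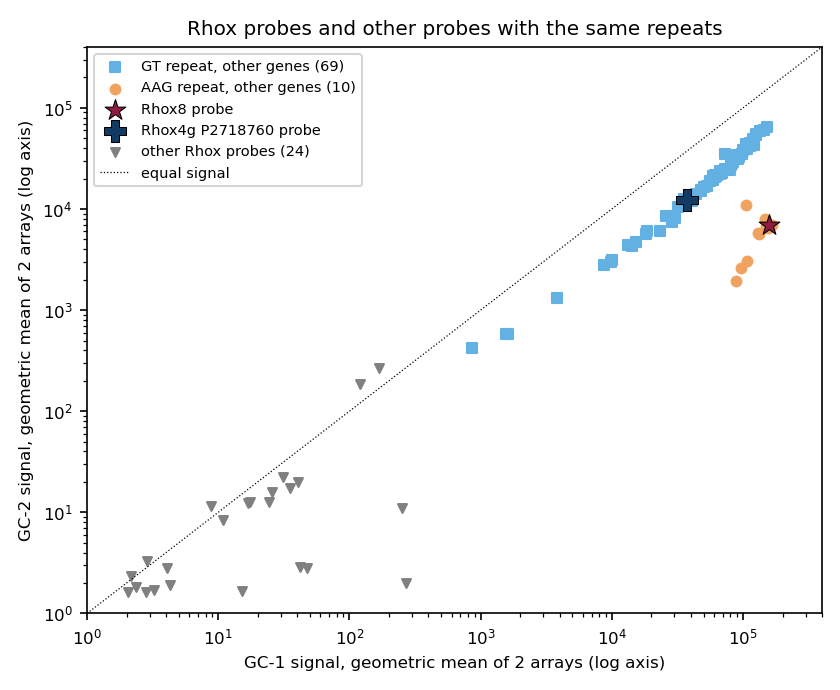
Signal in GC-2 against signal in GC-1 (each the geometric mean of 2 arrays, log axes) for the Rhox probes and for probes of other genes with the same repeats; the dotted line marks equal signal. The Rhox8 probe (star) lies within the group of 10 AAG-repeat probes, the Rhox4g P2718760 probe (plus) within the band of 69 GT-repeat probes and the other 24 Rhox probes at lower signals than any of these.

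Rhox5 was the only Rhox gene above the brightest ERCC control RNA in both lines by probes without a long repeat. The probe A_51_P376445 gave 276 and 104 in GC-1 and 398 and 180 in GC-2. The probe A_55_P2500786 gave 196 and 73.1 in GC-1 and 289 and 122 in GC-2. Raw signals overlapped between the lines, while normalised levels did not, being -1.27 and -2.74 in GC-1 and -0.06 and -0.15 in GC-2 for the first probe. Relative to the 75th percentile, Rhox5 rose by 1.90 ± 0.50 and 1.88 ± 0.50 (SE; limma adjusted p = 0.0277 and 0.0291). Without GC-2 replicate 1 or 2 neither call held, with adjusted p from 0.0784 to 0.0902. Without GC-1 replicate 2 the changes were 1.16 and 1.14, and the adjusted p of 0.0467 and 0.0518 kept the call of the first probe alone. Scaled to the E1A control RNAs the changes were 0.04 and 0.02.

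Rhox9, a gene of placenta and fetal gonad, was faint, with 12.1 and 6.45 in GC-1 and 11.4 and 11.7 in GC-2. It was above background on both GC-2 arrays and on 1 GC-1 array. The raw signals of the lines overlapped. Rhox9 was called higher (limma adjusted p = 0.0430), but 1 GC-1 value was not above background. The fitted change of 1.62 ± 0.49 (SE) is therefore not a measured size. The call was lost with quantile normalization (limma adjusted p = 0.0735), median centring (0.0580) and no filter on dim probes (0.0725). It was also lost in the authors' deposited table (limma adjusted p = 0.0882). With 1 array left out the fitted change ran from 1.08 to 2.17. On the E1A scale the change of Rhox9 was -0.24.

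The remaining tested probes were not called. Rhox1 had signals of 31.1 and 31.3 in GC-1 and 28.8 and 17.6 in GC-2 (change 0.77 ± 0.25, limma adjusted p = 0.0517). Rhox2e had 18.6 and 15.4, then 11.2 and 13.7 (0.79 ± 0.48), and Rhox2h had 24.7 and 23.9, then 9.27 and 16.9 (0.28 ± 0.62). Rhox3f had 24.7 and 26.8, then 16.2 and 15.5 (0.54 ± 0.37). Rhox3h had 36.2 and 34.1, then 27.3 and 10.9 (0.21 ± 0.24). In each of these probes, and in the Rhox7a probe A_55_P2089955 with 39.9 and 41.4, then 28.8 and 14.1 (0.22 ± 0.22), both GC-2 signals lay below both GC-1 signals. Their fitted changes, which are relative to each array's 75th percentile, were above 0. Rhox4e, on the repeat of CTTTCGG units, had 6.07 and 19.6, then 9.09 and 7.79 (0.86 ± 0.60), and was not above background on 1 GC-1 array. The normalised levels of the lines overlapped for Rhox2e, Rhox2h and Rhox4e. Several of these probes read more than a single copy. RefSeq lists Rhox2b, Rhox2c, Rhox2e and Rhox2f for the Rhox2e probe, and Rhox2a, Rhox2d, Rhox2g and Rhox2h for the Rhox2h probe. It lists Rhox3a, Rhox3c, Rhox3f and Rhox3g for the Rhox3f probe, and Rhox4a and Rhox4e for the Rhox4e probe.

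Together with the Rhox4g probe A_55_P1956513, 7 of these probes were above background on all 4 arrays with every signal under 50, between 9.27 and 41.4. In all 7 the mean signal was lower in GC-2 and the mean normalised level higher. The direction of these changes depended on the scaling: on the E1A scale all 7 were below 0, and with quantile normalisation or median centring those of Rhox2h, Rhox3h and Rhox7a were. Of the untested probes, that of Rhox12 alone was well above background on any array, with 24.7 and 9.22 in GC-1 and 1.76 and 1.57 in GC-2, and this was so of the first of these values only.

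A limit drawn from RNA that mouse cells do not have gave lower counts. The array holds 96 probes for ERCC control RNAs, and the brightest of them reached 31.0 to 74.2 per array. Above that limit, chosen after the values were seen, were 6 Rhox probes in GC-1 and 4 in GC-2, counting those above it on each array of the line, against 42.2% and 42.1% of all probes. These are the probes of Rhox8, Rhox5 and the GT-repeat probe of Rhox4g in both lines, and those of Rhox10 and Rhox3a in GC-1.

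The authors' deposited table holds 1 log2 value per gene name, and for Rhox4g it goes the other way from the probe that fell. In the authors' deposited table Rhox4g stood at -0.83 and -0.98 in GC-1 and at 0.77 and 0.58 in GC-2, a change of 1.59 (limma adjusted p = 0.0189 on that table). The mean of all 3 Rhox4g probes on the same scale was -0.83 and -0.98 in GC-1 and -1.49 and -1.90 in GC-2, a change of -0.78. On the GC-2 arrays the authors' deposited table thus matched the mean of the 2 probes that were above background there (0.78 and 0.59). The same rule matched, within 0.05, 99.6% to 99.8% of 2296 gene names with 2 or more probes of which some but not all were above background on each array, and the mean of all probes matched none. In the authors' deposited table the rise of Rhox4g thus comes with the probe A_55_P1975667 leaving the mean in GC-2.

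**Figure D4:**
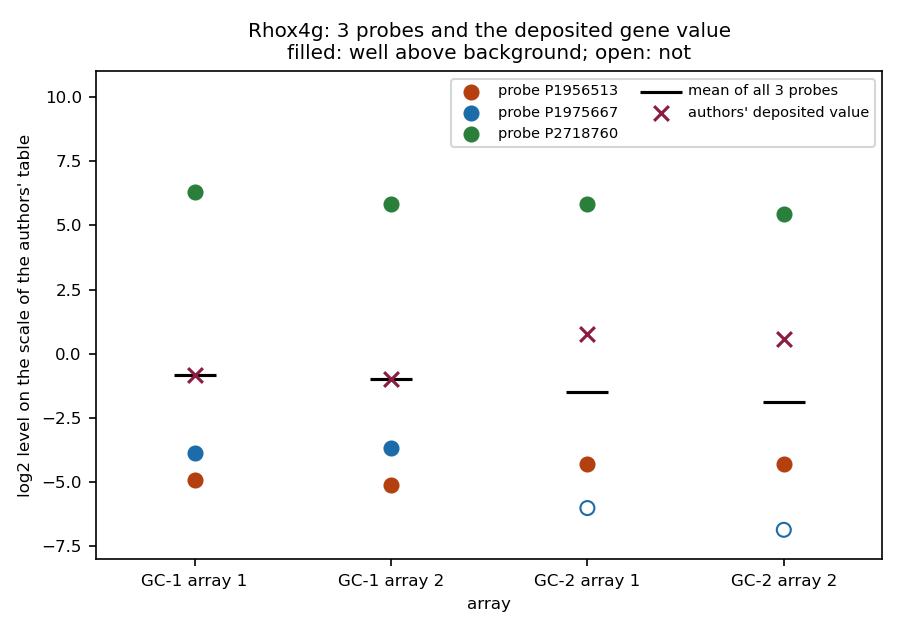
Log2 level of the 3 Rhox4g probes on each array (points, open where not well above background), their mean (bar) and the value in the authors' deposited table (cross), all on the scale of that table. The crosses and bars coincide in GC-1 at -0.83 and -0.98, and part in GC-2, where the blue probe is open and the crosses stand at 0.77 and 0.58.

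For the other Rhox genes with several probes, the authors' deposited table gave changes of 1.85 for Rhox5 (limma adjusted p = 0.0738) and 0.18 for Rhox7a. Of the 22 Rhox rows of the authors' deposited table, 4 were called lower (Rhox3a, Rhox4a, Rhox8 and Rhox10) and 2 higher (Rhox4g and Rhox13). The Rhox13 change of 1.32 in the authors' deposited table (limma adjusted p = 0.0347) comes from a probe that was above background on no array.

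The 722 kb between the outermost Rhox probes was set against the 1 Mb on either side, to see whether the cluster moved as its surroundings did. Of 62 flanking probes for 42 genes, GC-1 showed 44 (71.0%) above background on its pair of arrays and GC-2 43 (69.4%). In the flanks, 19 of 46 tested probes were higher in GC-2 and 2 were lower, with a median change of 0.67, beside 24.1% higher, 21.6% lower and a median of 0.07 over all probes tested. Within the cluster 4 of the 17 tested Rhox probes were higher and 5 lower. Of the 5 lower, 3 passed the filter through GC-1 alone. With a filter on all 4 arrays 4 Rhox probes were higher and 2 lower, and 20 flanking probes were higher and 1 lower. The difference between these counts was not tested. They count probes and not genes: all Rpl39 probes and both Mcts1 probes were among the 19 called higher. With E1A scaling 5 flanking probes were higher and 31 lower, and without GC-2 replicate 2 the count of higher probes was 10.

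Sowahd, an ankyrin repeat gene before the start of the cluster, was lower in GC-2. It had signals of 230.5 and 379 in GC-1 and 1.90 and 1.62 in GC-2, and its GC-1 level was higher by at least 15.3-fold (limma adjusted p = 0.00037). Beyond the end of the cluster a probe of Lamp2, a lysosomal membrane protein, rose by 4.78 (SE 0.34; limma adjusted p = 0.00049), from 31.0 and 20.0 to 356 and 236. The other Lamp2 probes, which read 23122 to 30462 and 6214 to 6242 in GC-1, changed by -0.23 and 0.66 and were not called. A probe of Zbtb33, which encodes the methyl-CpG binding protein Kaiso, read 10.3 and 19.1 in GC-1 and 151 and 107 in GC-2. It was called higher (limma adjusted p = 0.000845), but 1 of its GC-1 values was not above background, so the fitted change of 4.42 is not a measured size, while the brighter Zbtb33 probe changed by -0.32 and was not called. A probe of Lonrf3, a ring finger gene, had a GC-2 level higher by at least 10.0-fold, and another Lonrf3 probe changed by 0.70 and was not called.

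**Figure D5:**
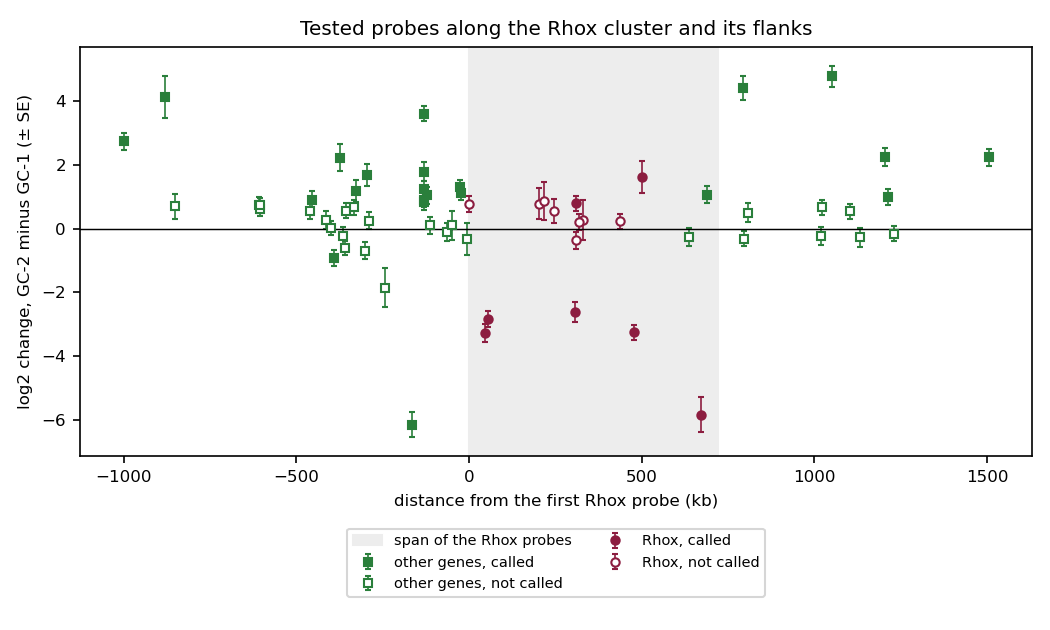
Log2 change (GC-2 minus GC-1, ± SE) of each tested probe against its distance from the first Rhox probe in kb; Rhox probes with a position are circles, other genes squares, and filled symbols were called. Most called squares outside the shaded span lie above 0, Sowahd near the start lies at -6.16, and the called Rhox circles inside it lie on both sides of 0.

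A list of 18 genes chosen by name as cluster neighbours had a median change of 0.59. Over the array 20.0% of 24102 genes were called higher and 23.3% lower. In the list none was called lower in the limma fit (1 was lower at an unadjusted p under 0.05) and 7 were called higher. The largest of these rises were those of Ndufa1, a subunit of respiratory complex I (1.29 ± 0.23), Nkrf, a repressor of NF-kappaB (1.19 ± 0.35), Rnf113a1, a spliceosome-linked ring finger gene (1.11 ± 0.22), and Upf3b, a factor of nonsense-mediated decay (1.04 ± 0.26). On the E1A scale these 4 changes were below 0. Every gene of the list but Cxx1c is also read by the flanking probes, so the list is not a separate reading of the flanks. Cxx1c, which has no probe among the flanking ones, is among the 7 higher genes (0.98, limma adjusted p = 0.0222).

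Factors known to act on Rhox5 were read from lists set up around the cluster. Of 10 transcription factors, 3 were higher and 5 lower in GC-2, with a median of -0.96 beside -0.04 over all genes tested, of which 20.0% were higher and 23.3% lower. With the mean of a gene's tested probes in place of the brightest, 5 were higher and 3 lower, and without GC-2 replicate 2 the count of lower genes was 2. It was 3 without GC-1 replicate 1 or GC-1 replicate 2. Gata4 rose by 2.20 (SE 0.26; limma adjusted p = 0.00212), from 454 and 625 to 1548 and 698. Gata2 fell by 2.46 (SE 0.29; limma adjusted p = 0.00216), from 709 and 618 to 89.0 and 29.3. Gata1 had signals of 55.8 and 47.1 in GC-1, higher by at least 2.66-fold, and its fitted change was -3.39 (limma adjusted p = 0.000719). Gata1 was above background on no GC-2 array, so that change is not a measured size. The change of Gata4 was above 0 and that of Gata2 below 0 under each scaling tried. That of Gata1 was 0.33 after normexp correction, where the median over all probes tested was 0.50. On the E1A scale the rise of Gata4 was not called (0.34).

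A list of 18 silencing factors holds genes of DNA methylation, its removal and its readers, and genes of repressive histone methylation. Of these, 3 were higher, 3 lower and 12 not called, against 20.0% higher and 23.3% lower over all genes. These counts moved with the processing: they were 0 higher and 17 lower on the E1A scale, and 8 higher and 2 lower with the mean of a gene's tested probes. With any 1 array left out, 0 to 1 were higher and 1 to 2 lower. Dnmt3a, a methyltransferase that sets new methyl marks, fell by 3.36 (SE 0.32; limma adjusted p = 0.00113), from 3144 and 2024 to 165 and 66.0. Dnmt3b fell by 1.07 (SE 0.34; limma adjusted p = 0.0495), a call lost after normexp correction (adjusted p 0.0514). Dnmt1, which copies the marks, changed by -0.05 ± 0.25 (limma adjusted p = 0.891). Uhrf1, the partner of Dnmt1, rose by 0.84 (SE 0.26; limma adjusted p = 0.0431). Its call was lost after normexp correction (adjusted p 0.104) and median centring (0.153), and its change on the E1A scale was -1.02. Methylation itself was not measured.

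Of 4 genes reported to respond to Rhox5, 2 could be tested. Unc5c, a netrin receptor linked to germ cell death, rose by 2.38 (SE 0.32; limma adjusted p = 0.00317), with signals of 27.6 and 33.2 in GC-1 and 75.3 and 59.2 in GC-2, and by 0.52 without a call on the E1A scale. Retn, which encodes resistin, changed by -0.67 and was not called, and Ins2 and Adipoq were above background on no array.

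Other homeobox genes of the reproductive tract and gonad were read from a further list. Of 22 such genes, 15 were tested. Among all genes tested, the called shares were 20.0% higher and 23.3% lower, and the median change was -0.04. In this list 7 genes were called higher and 1 lower, with a median change of 0.91. Without GC-1 replicate 1 these counts were 4 and 0, without GC-2 replicate 2 the lower count was 2, and with E1A scaling they were 4 and 9. Hoxd13, a posterior Hox gene, had a GC-2 level higher by at least 19.6-fold. Lhx9, a factor of the early gonad, read 11.98 and 11.8 in GC-1 and 316 and 143 in GC-2. It was called higher (limma adjusted p = 0.000165), but 1 GC-1 value was not above background, so its fitted change of 5.39 is not a measured size. Crxos rose by 2.82 (SE 0.33). Hoxa11, the 1 lower gene, fell by 1.94 (SE 0.33; limma adjusted p = 0.00709), a call lost after normexp correction (-0.34). On the E1A scale the changes of Hoxd13, Lhx9 and Crxos were also above 0. Nobox and the Obox3, Obox5 and Obox6 genes of oocytes were above background on no array.

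The 4 lists on transcription factors, silencing, Rhox5 targets and homeobox genes held 45 tested genes, of which 14 were higher and 9 lower, against 20.0% and 23.3% of all genes tested. With the mean of a gene's tested probes they were 20 and 6. Scaled to E1A they were 5 and 34. Without GC-1 replicate 1 they were 8 and 4, and without GC-2 replicate 2 they were 11 and 5.

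Cell type markers were read beside the Rhox genes. Of 18 germ cell markers, GC-1 had 9 above background and GC-2 had 5, beside 63.01% and 56.6% of all gene names. Dazl, Kit, Nanos2, Mael, Piwil1 and Dmc1 were so on no array. By level the list was led by Uchl1 (15345 and 7239 in GC-1, then 1474 and 640), Nanos3 (223 and 217, then 173 and 108), Sall4 (126 and 122, then 124 and 76.3) and Gfra1 (19.5 and 23.7, then 224 and 197). Of all probes, 29.9% were above background on no array. Uchl1, Id4, Tex14 and Piwil2 were lower in GC-2, and Gfra1, a receptor of spermatogonial stem cells, and Sall4 were higher. The fall of Uchl1 is that of its brighter probe. The other Uchl1 probe was above background on both GC-2 arrays and on no GC-1 array. After normexp correction the changes of Id4, Tex14 and Piwil2 were above 0, as was the median over all probes tested (0.50). On the E1A scale the change of Sall4 was -0.98.

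Of 16 Sertoli cell markers, which include Gata1 and Gata4 again, GC-1 had 12 above background and GC-2 had 10, beside the same 63.01% and 56.6% of gene names. In GC-2, 7 were lower and 2 higher, beside 23.3% and 20.0% of all genes tested. Trf, which encodes transferrin, fell by 11.22 (SE 0.23; limma adjusted p = 9.06e-05), from 89508 and 87661 to 22.3 and 11.2. Wt1, a Sertoli transcription factor, fell by 6.29 (SE 0.26; limma adjusted p = 0.000163), from 90669 and 74633 to 579 and 343. Clu, also widely expressed, fell by 2.25 and Inhbb, an inhibin subunit, by 3.46. The 2 higher genes were Gata4 and Nr5a1, a steroidogenic factor that rose by 6.18 (SE 0.23; limma adjusted p = 0.000146). Amh, Cldn11, Aard and Shbg were above background on no array. The part of these differences in those of Rhox10, Rhox3a and the Rhox8 probe was not tested.

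Epididymis, placenta and stem cell markers complete the tissues in which Rhox genes are known. Of 12 epididymis markers, 9 were above background on no array. Neither of those tested was called in the limma fit or had an unadjusted p under 0.05, Rnase10 changing by 0.09 and Lcn9 by 0.06. Of 11 placental markers with a probe, 5 were on no array, Cdx2, Elf5 and Tpbpa among them, and the only call was that of Gcm1 by its AAG-repeat probe. Of 12 pluripotency markers, 8 were tested, 3 were higher and 3 lower, against 20.0% higher and 23.3% lower over all genes tested. Klf4 (-1.88 ± 0.32), Tdgf1 (-3.21 ± 0.23) and Dppa5a (-1.81 ± 0.23) were lower, and Nanog, Utf1 and Lin28a were higher. On the E1A scale the changes of Nanog (0.07), Utf1 (-0.74) and Lin28a (-0.30) were not called, while the 3 falls stayed below 0.

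RefSeq (GRCm38.p6) holds the 250 bases upstream of the start for 17 of the 22 Rhox genes. Since methylation acts on CpG, the CpG sites are in capitals for called genes without a repeat probe, Rhox10 at chrX:38066225-38066474, Rhox3a at chrX:37249669-37249918, Rhox4a at chrX:37265125-37265374 and Rhox5 at chrX:37754358-37754607, all on the plus strand.
Rhox10 upstream: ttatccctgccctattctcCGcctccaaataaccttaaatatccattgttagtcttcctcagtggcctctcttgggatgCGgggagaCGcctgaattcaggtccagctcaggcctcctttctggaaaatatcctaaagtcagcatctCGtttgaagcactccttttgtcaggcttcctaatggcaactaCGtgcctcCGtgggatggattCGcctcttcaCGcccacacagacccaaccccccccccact
Rhox3a upstream: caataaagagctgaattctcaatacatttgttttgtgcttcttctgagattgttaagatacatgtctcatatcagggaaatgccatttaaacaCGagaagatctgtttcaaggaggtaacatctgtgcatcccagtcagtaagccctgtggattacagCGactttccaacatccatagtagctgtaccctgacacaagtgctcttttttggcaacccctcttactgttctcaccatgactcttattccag
Rhox4a upstream: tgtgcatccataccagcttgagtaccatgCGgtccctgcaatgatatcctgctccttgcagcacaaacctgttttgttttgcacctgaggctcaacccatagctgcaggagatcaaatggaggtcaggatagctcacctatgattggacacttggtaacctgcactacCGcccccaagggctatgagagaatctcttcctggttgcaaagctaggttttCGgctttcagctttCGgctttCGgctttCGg
Rhox5 upstream: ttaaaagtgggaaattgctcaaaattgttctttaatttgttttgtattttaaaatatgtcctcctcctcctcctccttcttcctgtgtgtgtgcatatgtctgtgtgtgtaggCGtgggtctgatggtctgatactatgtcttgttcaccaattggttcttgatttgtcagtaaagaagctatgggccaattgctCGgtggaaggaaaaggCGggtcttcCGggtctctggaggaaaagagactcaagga

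The 17 Rhox windows held 0 to 8 CpG with a median of 4, against a median of 6 over 32851 RefSeq windows of the same length, of which 37.8% held 10 or more. Rhox10 held the most (8), Rhox4a 6, Rhox5 4 and Rhox3a 2. A core Ets motif, CCGGAA on either strand, was in 4 windows (Rhox2c, Rhox2e, Rhox2h and Rhox5) and in 12.03% of all windows. The Rhox2 genes are near-identical copies, so their windows may not be independent sequences. A GATA motif, AGATAA on either strand, was in the Rhox13 window alone of the 17 and in 9.99% of all. The Rhox4a window ends in 3 units of CTTTCGG, the unit that the Rhox4e probe holds 5 times, and only 3 of all windows hold 2 or more on the given strand.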

How the data were processed

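RNA of GC-1 and GC-2 cells was measured on 4 arrays, 2 per line, with lines and replicate numbers taken from the sample titles. The deposited scanner files hold, per the file headers, output of Agilent Feature Extraction 11.5.1.1. Its processed intensity, per the file headers, is the Cy3 brightness of a spot once its background is subtracted and spatial trends are removed. Spots not above background hold a surrogate value, and arrays were not normalized to each other. The deposited flags of 0 or 1 mark spots well above background, saturated or irregular. The authors' deposited table holds log2 values, 1 per gene name. Its values for single-probe genes equal the normalised level plus a constant per array within 0.05 in over 99.9% of 25183 genes.

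From the intensities, log2 of the processed signal minus the array's 75th percentile was computed, spots of one probe were averaged and irregular spots left out. Probes well above background on both arrays of a line were fitted with limma 3.58.1 (R 4.3.3; lmFit, eBayes) and adjusted by Benjamini-Hochberg over all of them. A gene in a list was read by its brightest tested probe. Tables were made with Python 3.11.15, pandas 2.3.3, numpy 2.4.6 and matplotlib 3.10.9, and the fit was tested on simulated data. The number of arrays limits the precision, and 0 spots were saturated.

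Rhox members and gene lists were chosen with earlier results of these data known. Named were all Rhox probes above background on any array, up to 4 called genes of each list or flank by size of change, up to 4 markers by level, defining markers on no array, and best-known or sole members; some genes of the lists are counted but not reported here by name. The limit for faint signals (50), the repeat lengths (24 and 16 bases), the brightest ERCC limit and the counts without repeat probes were chosen after the values were seen. Alternatives were normexp, quantile, median and E1A scaling, other filters and detection rules, the replicate block, each array left out, the mean of a gene's tested probes and the authors' deposited table.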

Additional observations from a re-analysis of the deposited data

Results flagged for a closer look

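A probe of the Rhox11 pseudogene 3 lies inside the cluster at chrX:35443086-35443145 (mm9), is left out by the rule on gene names and carried signal above background on all 4 arrays. Its signals ran from 46.3 to 76.9, with both extremes in GC-2, while the Rhox11 probe was above background on no array. The pseudogene probe was higher in GC-2 by 1.06 ± 0.27 (SE; limma adjusted p = 0.0246) relative to the 75th percentile. The call was lost with quantile normalization (0.80, adjusted p 0.0513) and median centring (0.75, adjusted p 0.0698), and the change was -0.80 on the E1A scale.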

How the results depend on the processing

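For single Rhox probes, 216 alternatives were computed, of which 163 kept direction and side of the threshold, 26 lost the call, 7 gained one and 20 reversed. On the E1A scale, where the control RNAs stood 1.86 higher in GC-2, the reversed changes were Rhox1 -1.09, Rhox2e -1.08, Rhox2h -1.58, Rhox3f -1.32, Rhox3h -1.65, Rhox4e -0.999, Rhox4g A_55_P1956513 -1.07, Rhox7a -1.64 and Rhox9 -0.24. Quantile normalization and median centring reversed Rhox2h (-0.0125 and -0.0362), Rhox3h (-0.11 and -0.11) and Rhox7a (-0.0932 and -0.0931). Normexp reversed Rhox4a (0.34) and Rhox4g A_55_P1975667 (0.41), both below the normexp median of 0.50 over all probes tested. Rhox4g A_55_P1975667 and A_55_P2718760 were counted as reversed by the authors' deposited table (1.59). That value is 1 for the gene name and reads neither probe by itself. Leaving out GC-2 replicate 2 reversed Rhox2h (-0.68), whose change without GC-2 replicate 1 was 1.24.

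The 5 lower Rhox calls became 2 with normexp, 13 on the E1A scale and 2 with a filter on all 4 arrays. The 4 higher became 7 with normexp, where 25.9% of all probes tested were higher and 13.7% lower. They became 2 each with quantile normalization, median centring, no filter and the authors' deposited table, and 0 on the E1A scale. With 1 array left out, which assumes that the lone array varies like the other line's, lower calls stayed at 5 and higher calls ran from 0 to 3. Without the AAG and GT repeat probes 4 were lower and 4 higher. Flanking lower calls (2) became 1 with normexp, a filter on all 4 arrays, no filter or the authors' deposited table, 5 with median centring, 31 on the E1A scale and 1 to 2 with an array left out. Flanking higher calls (19) became 5 on the E1A scale, 9 in the authors' deposited table and 10 to 14 with an array left out. In the 4 lists, lower genes (9) became 34 on the E1A scale, 4 with no filter or the authors' deposited table and 4 to 7 with an array left out, and higher genes (14) became 5 and, with an array left out, 8 to 11. Above the brightest ERCC probe were 6 Rhox probes in GC-1 and 4 in GC-2.

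With the replicate block, 5 Rhox probes were lower and 3 higher, Rhox4g A_55_P1956513 losing its call. The replicate numbers are only shared numbers, and the deviations of replicate 1 correlated by 0.12 between the lines. Signals of most Rhox probes lie close to background, which limits their changes.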
